A study of Mus musculus with 16 samples.

Results

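The 10 genes described here encode the transcription factor NRF2 (Nfe2l2), 5 of its best known antioxidant targets (Nqo1, Gclc, Gclm, Txnrd1 and Srxn1) and 4 enzymes that remove peroxide or superoxide (Gpx1, Gpx4, Sod1 and Sod2). They were taken by gene symbol from the 24411 symbols in the data, and all 10 were found and tested. RNA was sequenced from 16 spinal cords of female C57BL/6J mice, 7 from injured mice given atorvastatin (SCI + Atorvastatin), 7 from injured mice given its vehicle (SCI + Vehicle) and 2 from mice without injury (Uninjured Control). SCI was a lateral compression to 0.25 mm at T8-9 in mice aged 12 wk. From 2 wk after injury, daily intraperitoneal injections were given for 4 wk, either 10 mg/kg atorvastatin, a statin that inhibits HMG-CoA reductase, or the vehicle alone (saline with 2% DMSO, 35% PEG 400 and 2% Tween 80), so both injured groups received the vehicle. A 5 mm length of cord around the lesion was collected 6 wk after injury, when the injured mice were 18 wk old by this schedule. The Uninjured Control mice were untreated and came from the matching region of cord. Their labels give an age of 12 wk, as do those of the injured mice. The methods text puts the controls at 14 wk when tissue was taken, and on that account they were younger than the injured mice. Injury, surgery, injections, vehicle, age and the differences of the control libraries described below cannot be told apart in a comparison with these controls.

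NRF2 is held at a low level by KEAP1, which bridges it to the CUL3 and RBX1 ubiquitin ligase, and much of its control is of the protein rather than the mRNA. When KEAP1 is modified by oxidants or electrophiles, NRF2 accumulates, pairs with small MAF proteins and binds antioxidant response elements near its target genes. Those targets supply reduced glutathione and thioredoxin, on which peroxidases and peroxiredoxins draw to clear hydrogen peroxide and lipid peroxides, while superoxide dismutases convert superoxide to hydrogen peroxide. In the injured cord, lipid peroxidation is a well known part of secondary damage, and astrocytes are known for high activity of the pathway.

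Upstream sequence is shown for the 3 members whose levels differed most clearly from the Uninjured Control, 1 of which rose and 2 of which fell. Only 1 form of the core of the antioxidant response element, TGACNNNGC, was searched, with GCNNNGTCA as its form on the other strand. The search covered both strands in the 250 bases before each RefSeq start site on GRCm38.p6. 9 of the 10 members had a sequence. The core was in 4 of these 9, against 3112 of 27025 genes (11.5%) with at least 1 window of the same length. A match is a description of letters and was not tested for binding. No match means only that this form was absent. The Srxn1 window, for example, holds TGAGTCAGC, with G in place of the C of the searched form, and such sequences were not counted. Capitals mark the core, and each sequence runs 5′ to 3′ on the strand of the gene.
Nfe2l2 (chr2:75704664-75704913, minus strand, core starting 240 bases upstream of the start site): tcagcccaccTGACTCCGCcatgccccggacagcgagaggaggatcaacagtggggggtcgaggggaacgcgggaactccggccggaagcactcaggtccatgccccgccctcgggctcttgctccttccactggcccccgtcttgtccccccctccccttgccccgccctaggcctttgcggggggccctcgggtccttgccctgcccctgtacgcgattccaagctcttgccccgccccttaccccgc
Gclm (chr3:122245307-122245556, plus strand, core on the other strand starting 134 bases upstream): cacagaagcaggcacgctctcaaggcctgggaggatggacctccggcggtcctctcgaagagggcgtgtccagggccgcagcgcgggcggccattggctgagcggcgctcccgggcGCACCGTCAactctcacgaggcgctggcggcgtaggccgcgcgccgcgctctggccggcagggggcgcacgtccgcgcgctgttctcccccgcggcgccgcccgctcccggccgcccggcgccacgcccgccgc
Srxn1 (chr2:152105274-152105523, plus strand, no match in this window): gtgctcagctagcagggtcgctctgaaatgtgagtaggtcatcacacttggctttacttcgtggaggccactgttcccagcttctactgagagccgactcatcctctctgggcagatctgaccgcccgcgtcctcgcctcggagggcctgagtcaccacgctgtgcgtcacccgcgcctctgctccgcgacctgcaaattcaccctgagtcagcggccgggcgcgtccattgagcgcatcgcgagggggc
The other 2 members with a match are Txnrd1 and Sod1, for which the core is shown with its flanks.
Txnrd1 (from the window chr10:82858956-82859205, plus strand, 1 of 3 start sites, core 92 bases upstream on the other strand): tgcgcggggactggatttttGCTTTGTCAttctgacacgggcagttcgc
Sod1 (from the window chr16:90220512-90220761, plus strand, core 56 bases upstream on the other strand): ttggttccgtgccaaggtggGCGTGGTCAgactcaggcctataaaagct
The windows of Nqo1, Gpx1, Gpx4 and Sod2 had no match.

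In GRCm38 the members lie on 7 chromosomes. Nfe2l2 is at chr2:75675513-75704641, Srxn1 at chr2:152105516-152111376, Gclm at chr3:122245557-122270732, Nqo1 at chr8:107388225-107403206, Gclc at chr9:77754535-77794485, Gpx1 at chr9:108338903-108340343, Gpx4 at chr10:80047166-80056439, Txnrd1 at chr10:82833951-82897712, Sod1 at chr16:90220754-90226329 and Sod2 at chr17:13006846-13040063. Gclm overlaps the pseudogene Gm6061 on its own strand, Txnrd1 overlaps Eid3 on its own strand and Scaf4 on the opposite strand touches Sod1. Gpx4 has a processed pseudogene copy, Gpx4-ps2, so the counts of these 4 genes may hold reads of another locus.

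Libraries held 14823292 to 25579826 counts on genes, and every member had counts in every mouse but for Nqo1 in 1 control. The 2 Uninjured Control libraries stood apart from the injured ones and from each other. They had counts on 12356 and 12732 genes, against 16399 to 19338 in the SCI mice. Of 4862 genes that averaged between 100 and 500 counts over the injured mice, 22.2% and 26.1% were at 0 in control replicates 1 and 2, against at most 0.473% in any SCI mouse. The summed level of 8 liver genes was 7070 and 1206 TPM (a transcript level scaled for gene length and library size) in controls 1 and 2 and at most 13.5 TPM in the SCI mice. Nothing in the labels says that the mice of a group are littermates or shared a day, and the p-values measure the spread between these mice only.

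Sod1, the cytosolic copper and zinc superoxide dismutase, had the highest level of the 10 genes in each group. Its mean was 799 ± 75.6 TPM (SD, n = 7) in SCI + Atorvastatin and 846 ± 121 TPM (SD, n = 7) in SCI + Vehicle. Gpx4 followed, with 607 ± 52.6 TPM and 654 ± 76.6 TPM (SD, n = 7 each), and then Gpx1 with 413 ± 33.0 TPM and 386 ± 69.5 TPM (SD, n = 7 each). The ranges of Sod1 and Gpx4 overlapped in SCI + Vehicle, although Sod1 was the higher in 7 of 7 mice. Srxn1, Sod2, Nfe2l2 and Txnrd1 made a second tier at 63.3 to 82.1 mean TPM in the injured groups. Each of these neighbours overlapped the next, except that Sod2 lay above Txnrd1 in 7 of 7 SCI + Vehicle mice without overlap. Gclm and Gclc were at 38.0 to 44.8 mean TPM and overlapped, and Nqo1 was lowest at 13.2 ± 6.05 TPM and 14.8 ± 4.10 TPM (SD, n = 7 each). In the Uninjured Control order of means, Gclm was 6th, overlapping Txnrd1, and Nfe2l2 was 9th. Nqo1 also varied most between mice, with a coefficient of variation of 45.8% in SCI + Atorvastatin and 27.7% in SCI + Vehicle, and Txnrd1 varied little, at 9.23% and 8.94%.

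To ask how injury related to this system, each injured group was compared with the Uninjured Control. A gene was called when its log2 fold change was beyond 0.32 in either direction with an adjusted p below 0.05 in edgeR's quasi-likelihood test over 16091 genes. Between SCI + Vehicle and Uninjured Control, 4 of the 10 members were called, Nfe2l2 upregulated and Gclm, Srxn1 and Sod2 downregulated, against a background of 29.8% of all genes tested. The 1 upregulated member compares with 19.9% of all genes and the 3 downregulated members with 9.91%. In the comparison of SCI + Atorvastatin with Uninjured Control, 5 members were called (38.9% of all genes), the same 4 and Sod1. The background was 24.9% for genes called higher and 14% for genes called lower. At an unadjusted p below 0.05 there were 5 members (41.3% of all genes) and 6 members (47.8%). In SCI + Vehicle, 2 members lay wholly above and 2 wholly below the controls in CPM (24.5% and 11.4% of all genes), and in SCI + Atorvastatin 1 above and 5 below (30.0% and 13.9%). The median log2 fold change of the 10 genes was -0.21 and -0.29, whereas that of all genes tested was 0.17 and 0.21. Both comparisons used the same 2 Uninjured Control mice, so the second is not a repeat of the first. In bulk cord, fewer cells of a type and less RNA per cell cannot be told apart.

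**Figure D1:**
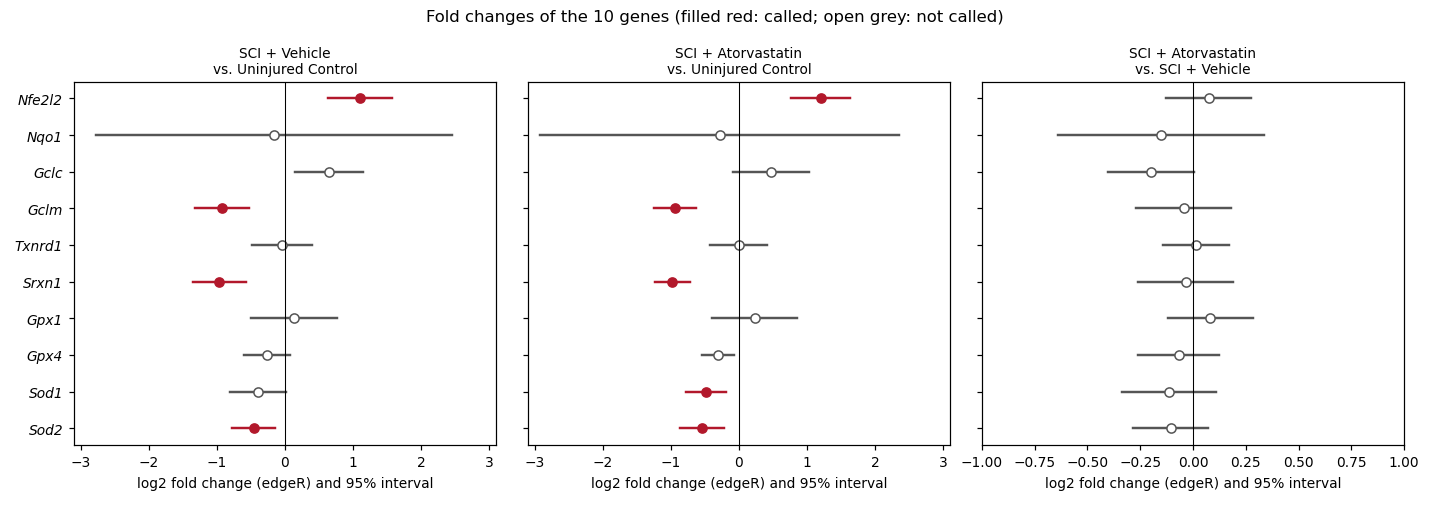
Log2 fold change of each of the 10 genes in the 3 comparisons, from edgeR on TMM-scaled counts, with bars for the 95% interval. Nfe2l2 lies above 0 and Gclm and Srxn1 lie below 0 in both comparisons with the Uninjured Control, the interval of Nqo1 is very wide there, and all 10 intervals of SCI + Atorvastatin vs. SCI + Vehicle cross 0. On TPM, Nqo1, Txnrd1 and, in SCI + Vehicle, Gpx4 change sign against the control, and Gclm changes sign between the treatments.

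Nfe2l2, the gene of NRF2 itself, was upregulated about 2-fold in both injured groups. It was at 11.8 and 26.8 TPM in control replicates 1 and 2. In SCI + Vehicle the lowest, median and highest mice were at 53.6, 65.9 and 75.2 TPM, and in SCI + Atorvastatin at 52.1, 66.4 and 81.1 TPM. Every injured mouse was thus above both controls, and the injured groups overlapped throughout their ranges. The log2 fold change was 1.10 (SE 0.213, 2.14-fold, adjusted p = 0.00340 by edgeR) in SCI + Vehicle and 1.20 (SE 0.196, 2.29-fold, adjusted p = 0.000949) in SCI + Atorvastatin. On log2(TPM + 1) it was larger, 1.76 and 1.87, and the median of all genes was also higher on that scale, 0.49 and 0.52. The Nfe2l2 ratio of TPM to CPM was divided by the median ratio over genes with at least 100 counts in the same mouse. It was 0.808 and 1.118 in the controls and 1.306 to 1.419 in the injured mice. The 2 scales thus parted for Nfe2l2 beyond the shift of all genes, and the cause was not tested. Leaving out any 1 mouse gave log2 fold changes of 0.85 to 1.41 and 0.94 to 1.50 by edgeR. A fit without 1 control takes its spread from the injured mice alone. Calls in such fits, here and below, do not show that a result is stable. The summed level of 10 microglia and macrophage genes was 238 and 412 TPM in the controls, 3040 to 4356 TPM in SCI + Vehicle and 3616 to 5176 TPM in SCI + Atorvastatin. The 8 astrocyte genes summed to 4479 and 5319 TPM in the controls and 8909 to 11353 TPM in the injured mice. Gfap held most of that rise, with a mean of 1712 TPM in the controls, 6640 TPM in SCI + Vehicle and 7010 TPM in SCI + Atorvastatin. Of the 8 genes, 4 had a positive and 4 a negative log2 fold change in SCI + Vehicle, and 5 and 3 in SCI + Atorvastatin. The part of these cells in the Nfe2l2 difference was not tested.

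The 2 subunits of glutamate-cysteine ligase, the rate-limiting enzyme of glutathione synthesis, did not move together. Gclm, the modifier subunit, was downregulated about 2-fold in both injured groups, whereas Gclc, the catalytic subunit, was not called. Gclm was at 68.9 and 67.8 TPM in the controls. In SCI + Vehicle the lowest, median and highest values of Gclm were 28.9, 37.3 and 51.3 TPM, and in SCI + Atorvastatin 33.1, 39.0 and 49.3 TPM. Both controls were above all 14 injured mice. The log2 fold change of Gclm was -0.92 (SE 0.178, adjusted p = 0.00340 by edgeR) in SCI + Vehicle and -0.95 (SE 0.139, adjusted p = 0.000510) in SCI + Atorvastatin. Gclc was at 27.8 and 19.0 TPM in the controls, at 36.7, 47.2 and 53.6 TPM (lowest, median and highest) in SCI + Vehicle and at 28.4, 40.3 and 46.9 TPM in SCI + Atorvastatin. On TPM every injured mouse was above the controls for Gclc, but on TMM-scaled counts control replicate 1, at 54.4 CPM (counts scaled for library size, here by TMM), lay inside the SCI + Atorvastatin range of 46.6 to 67.1 CPM. For Gclc it was 0.65 (SE 0.227, adjusted p = 0.0528 by edgeR) in SCI + Vehicle and 0.47 (SE 0.248, adjusted p = 0.161) in SCI + Atorvastatin. Gclc was called in SCI + Vehicle vs. Uninjured Control by DESeq2 (0.63, adjusted p = 0.0321) and on log2(TPM + 1) (0.92), and without control replicate 1 (1.22), and in SCI + Atorvastatin on log2(TPM + 1) (0.68, adjusted p = 0.0427 by limma) and without control replicate 1 (1.04, adjusted p = 0.000885 by edgeR). Without control replicate 2 the values were 0.24 and 0.056 and Gclc was not called. The controls differed from each other by 1.97-fold in Gclc and by 1.17-fold in Gclm.

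Within each mouse, the ratio of Gclm to Gclc TPM shows the same contrast without reference to any other gene. The ratio was 2.48 and 3.57 in the controls. It was 0.888 ± 0.205 (SD, n = 7, 0.611 to 1.21) in SCI + Vehicle and 1.07 ± 0.202 (SD, n = 7, 0.736 to 1.28) in SCI + Atorvastatin. In the controls Gclm was therefore the more abundant transcript, and in the injured mice the 2 were near equal. The mean log2 ratio differed from the controls by -1.78 (0.291-fold) and -1.50 (0.353-fold). Both had an exact two-sided permutation p of 0.0556, the smallest that 7 mice against 2 allow, so the design could not reach p = 0.05. Leaving out any 1 mouse gave -2.04 to -1.52 and -1.76 to -1.24.

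The 2 thioredoxin-linked targets also differed from each other. Srxn1, sulfiredoxin, which restores over-oxidized peroxiredoxins, was downregulated about 2-fold in both injured groups, and Txnrd1, the cytosolic thioredoxin reductase, was not called. Srxn1 was at 137 and 144 TPM in the controls. It was at 61.2, 80.1 and 109 TPM (lowest, median and highest) in SCI + Vehicle and at 70.9, 80.3 and 96.4 TPM in SCI + Atorvastatin. All 14 injured mice were below both controls, which differed from each other by only 1.16-fold. For Srxn1 the log2 fold change was -0.97 (SE 0.176, adjusted p = 0.00250 by edgeR) in SCI + Vehicle and -0.98 (SE 0.115, adjusted p = 0.000145) in SCI + Atorvastatin. Txnrd1 was at 32.8 and 73.5 TPM in the controls, at 52.1, 64.0 and 69.1 TPM in SCI + Vehicle and at 60.7, 63.5 and 78.8 TPM in SCI + Atorvastatin. The 2 controls thus lay on either side of most injured mice. The log2 fold change of Txnrd1 was -0.05 (SE 0.197, adjusted p = 0.893 by edgeR) and -0.0039 (SE 0.186, adjusted p = 0.999), and its sign depended on the control, being -0.42 and -0.38 without control replicate 1 and 0.47 and 0.51 without control replicate 2, each of which was called. It was 0.36 and 0.40 on log2(TPM + 1).

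Without any 1 mouse, the log2 fold changes of Gclm and Srxn1 ran from -1.03 to -0.81 and from -1.07 to -0.86 in SCI + Vehicle. In SCI + Atorvastatin they ran from -1.06 to -0.83 and from -1.09 to -0.87. The calls of Nfe2l2, Gclm and Srxn1 were lost where the controls were given their own spread, in limma voom with a quality weight per group (adjusted p = 0.558, 0.456 and 0.460 in SCI + Vehicle and 0.442, 0.237 and 0.165 in SCI + Atorvastatin). The 9 neuron genes summed to 9767 and 12157 TPM in the controls and to 5982 to 9850 TPM in the injured mice, and 7 and 8 of the 9 were called lower (9.91% and 14% of all genes). The 8 oligodendrocyte genes summed to 13030 and 18243 TPM in the controls, with control replicate 2 inside and control replicate 1 below the injured range of 13489 to 19388 TPM. The part of these cells, or of the liver transcripts of the controls, in the lower Gclm and Srxn1 was not tested.

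Nqo1, NAD(P)H quinone dehydrogenase 1, a reductase of quinones that is often read as a marker of NRF2 activity, could not be compared with the controls. It was at 0 TPM and 0 counts in control replicate 1 and at 14.5 TPM and 455 counts in control replicate 2. In SCI + Vehicle it was at 9.39, 14.4 and 19.6 TPM (lowest, median and highest), and in SCI + Atorvastatin at 5.20, 13.1 and 23.3 TPM. Control replicate 2 was inside both injured ranges, and control replicate 1 was below every injured mouse. Without control replicate 1, Nqo1 was called lower (log2 fold change -1.15 and -1.28 by edgeR). Without control replicate 2 it was called higher, at a fold that a control of 0 counts leaves undefined. The 2 scales of Nqo1 also moved apart among injured mice. Its ratio of TPM to CPM, divided as for Nfe2l2 by the median ratio in the same mouse, ran from 1.07 to 2.61. This 2.44-fold spread over the injured mice was at most 1.28-fold for the other members. That spread leaves out the controls, where the ratio of Nfe2l2 was below that of every injured mouse. The same held for Txnrd1, at 0.820 and 0.889 in the controls against 0.919 to 1.001.

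The 2 glutathione peroxidases are selenoproteins, Gpx1 reducing hydrogen peroxide in the cytosol and mitochondria and Gpx4 reducing lipid hydroperoxides in membranes, the step that holds back ferroptosis. Neither was called in either comparison. Gpx1 was at 344.3 and 202 TPM in the controls, at 337, 359 and 532 TPM (lowest, median and highest) in SCI + Vehicle and at 356, 425 and 441 TPM in SCI + Atorvastatin. Its log2 fold change was 0.13 (SE 0.285, adjusted p = 0.766 by edgeR) and 0.23 (SE 0.280, adjusted p = 0.557). The controls differed by 2.59-fold in CPM of Gpx1, and without control replicate 1 it was called higher, at 0.97 and 1.08. Without control replicate 2 the sign turned, to -0.41 and -0.31, and Gpx1 was not called. On log2(TPM + 1) it was called in SCI + Atorvastatin only (0.64, adjusted p = 0.0156 by limma). Gpx4 was at 536 and 717 TPM in the controls, at 593, 644 and 816 TPM in SCI + Vehicle and at 508, 629 and 655 TPM in SCI + Atorvastatin. Its log2 fold change was -0.26 (SE 0.152, adjusted p = 0.225 by edgeR) and -0.30 (SE 0.106, adjusted p = 0.0446), the latter short of the limit of 0.32. On log2(TPM + 1) Gpx4 had the opposite sign in SCI + Vehicle, 0.07. The ratio of Gpx1 to Gpx4 TPM was 0.642 and 0.282 in the controls, 0.598 ± 0.130 in SCI + Vehicle and 0.684 ± 0.0715 in SCI + Atorvastatin (SD, n = 7 each), with exact permutation p = 0.333 and 0.167 for the differences of 0.46 and 0.68 on the log2 scale.

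Of the 2 superoxide dismutases, mitochondrial Sod2 was downregulated in both injured groups and cytosolic Sod1 in SCI + Atorvastatin, with modest folds. Sod2 was at 109 and 80.3 TPM in the controls, at 70.9, 73.2 and 92.8 TPM (lowest, median and highest) in SCI + Vehicle and at 61.0, 68.3 and 87.7 TPM in SCI + Atorvastatin. On TPM control replicate 2 lay inside both injured ranges. The log2 fold change of Sod2 was -0.46 (SE 0.143, adjusted p = 0.0343 by edgeR) in SCI + Vehicle and -0.54 (SE 0.143, adjusted p = 0.0125) in SCI + Atorvastatin. The call in SCI + Vehicle was lost without control replicate 1 (-0.22, adjusted p = 0.316) and without any 1 of SCI + Vehicle replicates 1 to 6 (adjusted p = 0.0581 to 0.0721). Sod1 was at 934 and 978 TPM in the controls, at 751, 791 and 1026 TPM in SCI + Vehicle and at 709, 777 and 910 TPM in SCI + Atorvastatin. All 7 SCI + Atorvastatin mice were below both controls on TPM and in CPM. SCI + Vehicle replicates 1 and 7 were above both controls on TPM only. In CPM these 2 mice, at 195.1 and 225.7, lay between control replicates 1 and 2, at 235.9 and 192.2. For Sod1 the log2 fold change was -0.39 (SE 0.186, adjusted p = 0.140 by edgeR) in SCI + Vehicle and -0.48 (SE 0.134, adjusted p = 0.0164) in SCI + Atorvastatin. Without SCI + Vehicle replicate 7, Sod1 was called there too (-0.48, adjusted p = 0.0320), as was Gpx4 (-0.35, adjusted p = 0.0202). In SCI + Atorvastatin both dismutase calls were lost on log2(TPM + 1) (adjusted p = 0.0699 for Sod1 and 0.0697 for Sod2 by limma) and without control replicate 1 (0.0902 and 0.103 by edgeR). The ratio of Sod2 to Sod1 TPM was 0.116 and 0.0821 in the controls, 0.0906 ± 0.00844 in SCI + Vehicle and 0.0895 ± 0.0126 in SCI + Atorvastatin (SD, n = 7 each), and the control values lay on either side of the injured means.

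The second question was whether atorvastatin changed these genes in the injured cord. No member was called in SCI + Atorvastatin vs. SCI + Vehicle by edgeR at unadjusted p below 0.001 and the same fold limit, the background being 0.106% of all genes tested (0.0870% higher and 0.0186% lower). None had an unadjusted p below 0.05 by edgeR or by DESeq2, against 7.03% of all genes by edgeR, and all 10 overlapped between the groups (0.0559% of all genes lay wholly higher and 0.0311% wholly lower). The member nearest to a difference was Gclc, with a log2 fold change of -0.20 (95% interval -0.40 to 0.01, adjusted p = 0.722 by edgeR). For Nfe2l2 the log2 fold change was 0.07 and the interval allowed 0.915-fold to 1.21-fold. For Nqo1 it was -0.15 with the widest interval, 0.641-fold to 1.26-fold. The intervals of the other 7 members were -0.27 to 0.18 for Gclm, -0.14 to 0.17 for Txnrd1, -0.26 to 0.19 for Srxn1, -0.12 to 0.28 for Gpx1, -0.26 to 0.12 for Gpx4, -0.34 to 0.11 for Sod1 and -0.28 to 0.07 for Sod2. The intervals of Nfe2l2 and of 6 of these 7 lay within the fold limit, and those of Sod1, Gclc and Nqo1 reached beyond it. The median log2 fold change of the members was -0.06 and that of all genes was -0.00. The ratio of Gclm to Gclc differed by 0.28 on the log2 scale between the treatments (exact permutation p = 0.131, adjusted p = 0.295 over 9 tests) and that of Gpx1 to Gpx4 by 0.22 (p = 0.122, adjusted p = 0.295). The 6 fibroblast genes summed to 461 to 1158 TPM in SCI + Atorvastatin and 76.7 to 714 TPM in SCI + Vehicle, and 6 of 6 had an unadjusted p below 0.05 in this comparison.

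Among the 14 injured mice, after subtraction of each treatment mean, 45 pairs of members were compared on log2 CPM. Pearson's r ran from -0.646 for Nqo1 and Gclc to 0.834 for Txnrd1 and Srxn1, with a median of 0.140. The pair Txnrd1 and Srxn1 passed an adjusted p of 0.05 (p = 0.000860, adjusted p = 0.0387, permutation test). Its Spearman's rho was 0.697 (p = 0.0114, adjusted p = 0.171, permutation test), so it did not pass by rank, and no pair did. The 7 SCI + Atorvastatin mice alone gave r = 0.639 and the 7 SCI + Vehicle mice r = 0.914. It was 0.626 without the 2 mice farthest from the median of Txnrd1, SCI + Vehicle replicates 1 and 7, and 0.723 without SCI + Vehicle replicate 7 alone. Gpx4 and Sod1 followed with r = 0.795 (adjusted p = 0.0731, permutation test) and Gclm and Txnrd1 with r = 0.712 (adjusted p = 0.168). Without any 1 of SCI + Atorvastatin replicates 1 and 6 or SCI + Vehicle replicates 1, 2, 4, 5, 6 and 7 no pair passed, and without SCI + Atorvastatin replicate 3 or 5 or SCI + Vehicle replicate 3, 2 pairs did. SCI + Vehicle replicate 7 had the highest neuron sum (9850 TPM) and oligodendrocyte sum (19388 TPM) and the lowest fibroblast sum (76.7 TPM) of the injured mice, and the part of tissue makeup in these correlations was not tested.

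The genes whose levels most resembled each member over the same 14 mice were searched among 12826 genes, as a description. Srxn1 was nearest to Aes (r = 0.937), Camta1 (0.933) and Ubald1 (0.925), and Txnrd1 to L3mbtl2 (0.932), Hmgb3 (0.888) and Aes (0.863), so that Aes was shared by both. Gpx4 was nearest to Gabarapl1 (0.975), Sod1 to Atp5h (0.937), Gpx1 to Vps26a (0.921) and Sod2 to Pak7 (0.913). For Nfe2l2 the nearest was Blzf1 (0.862), for Gclc AI837181 (0.857), for Gclm Dexi (0.857) and for Nqo1 Gpr137b (0.838). No member was among the 3 genes nearest to another member.

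Beyond the members, 72 genes of the same system in 8 lists were read from the same fits. SCI + Vehicle differed from Uninjured Control with 9 called higher and 12 lower, a total share of 29.2% beside 29.8% of all genes (19.9% higher and 9.91% lower), and SCI + Atorvastatin with 14 called higher and 17 lower, 43.1% beside 38.9% of all genes (24.9% higher and 14% lower). The median log2 fold changes were -0.02 and -0.05, against 0.17 and 0.21 over all genes. The totals were thus near the background. In both comparisons the share called higher was below that of all genes and the share called lower was above it. Some lists held calls in both directions, as the members did, and some in 1 direction.

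Of the 9 NRF2 regulators, Rbx1, the RING subunit of the ligase that ubiquitinates NRF2, was downregulated in both comparisons (log2 fold change -1.03, adjusted p = 0.00391 and -0.99, adjusted p = 0.000208 by edgeR). Keap1 was at 41.4 and 15.7 TPM in the controls and at 25.6 to 43.2 TPM in the injured mice, with a log2 fold change of 0.02 (adjusted p = 0.979) in SCI + Vehicle. Bach1, a repressor that competes for antioxidant response elements, was upregulated in SCI + Atorvastatin (0.80, adjusted p = 0.0230) and was at 0.63 (adjusted p = 0.160) in SCI + Vehicle. The other 6 regulators were not called in either comparison.

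Among the 12 other NRF2 targets, Ftl1, the ferritin light chain, was at 774 and 679 TPM in the controls and at 1116 to 2346 TPM in the injured mice, and rose in both comparisons (1.11, adjusted p = 0.00172 and 1.38, adjusted p = 0.000627 by edgeR). Hmox1, heme oxygenase 1, was at 12.2 and 5.63 TPM in the controls and at 21.4 to 55.2 TPM in the injured mice. On TPM all 14 were above both controls, whereas in CPM control replicate 1, at 15.2, lay inside the SCI + Vehicle range of 13.4 to 28.8, and the call was made in SCI + Atorvastatin (1.44, adjusted p = 0.0458) but not in SCI + Vehicle (1.14, adjusted p = 0.143). Cbr3, a carbonyl reductase named after its values were seen, had 0 counts in both controls, 23 to 151 counts in SCI + Vehicle and 54 to 148 counts in SCI + Atorvastatin. No fold is given, since genes with more counts in the injured mice were often at 0 in these controls. Sqstm1, which encodes the p62 adaptor that binds KEAP1, was at -0.02 and 0.01 and was not called. Macrophages are known to express Hmox1 and Ftl1, 7 and 8 of the 10 microglia and macrophage genes were called higher in the 2 comparisons (19.9% and 24.9% of all genes), and the part of these cells was not tested.

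In glutathione synthesis and recycling, Gsr, the reductase that returns oxidized glutathione to its reduced form, was upregulated (1.23, adjusted p = 0.00935 and 1.37, adjusted p = 0.00114 by edgeR). It was at 8.62 and 17.2 TPM in the controls and at 19.2 to 43.6 TPM in the injured mice, without overlap on either scale. Slc7a11, the cystine carrier of system xc-, was at 2.00 and 11.4 TPM in the controls, at 3.77 to 27.8 TPM in SCI + Vehicle and at 22.2 to 40.5 TPM in SCI + Atorvastatin. It was called in SCI + Atorvastatin (1.89, adjusted p = 0.0194) and not in SCI + Vehicle (1.19, adjusted p = 0.265), and between the treatments the edgeR log2 fold change was 0.69 (adjusted p = 0.680). Of the 10 glutathione transferases, 5 fell in each comparison (9.91% and 14% of all genes were called lower) and none rose (19.9% and 24.9% were called higher). Gstz1 was at 74.4 and 76.1 TPM in the controls and at 22.9 to 40.2 TPM in the injured mice (-1.16, adjusted p = 0.000773 in SCI + Vehicle). The other 4, Gsta4, Gstm1, Gstm7 and Gstp1, were named after their values were seen and were at -0.73, -0.63, -1.02 and -0.64 in SCI + Vehicle. For 2 of these, 1 control lay inside the injured range. Gsta4 was at 136 and 396 TPM in the controls and at 132.7 to 222 TPM in the injured mice, and Gstm7 at 138 and 55.8 TPM in the controls and at 31.0 to 77.3 TPM in the injured mice. Whether the liver transcripts of the controls had a part in the transferase values was not tested.

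Thioredoxins and peroxiredoxins were mixed. Txn2, the mitochondrial thioredoxin, was at 197 and 192 TPM in the controls and at 92.8 to 128 TPM in the injured mice, and fell in both comparisons (-0.95, adjusted p = 0.00113 in SCI + Vehicle by edgeR). Prdx3 and Prdx4, the peroxiredoxins of mitochondria and endoplasmic reticulum, named after their values were seen, also fell in SCI + Vehicle (-0.93 and -1.12). Prdx3 was at 50.6 and 112.7 TPM in the controls, and control replicate 1 lay inside the SCI + Vehicle range of 36.4 to 62.6 TPM. Prdx6, whose product reduces phospholipid hydroperoxides, rose (0.61, adjusted p = 0.00740 and 0.66, adjusted p = 0.00354), from 296 and 220 TPM in the controls to 390 to 516 TPM in the injured mice. Prdx1, Txn1 and Txnip, the gene of a thioredoxin inhibitor, were not called in either comparison, at 0.37, 0.58 and 0.63 in SCI + Vehicle (adjusted p = 0.263, 0.467 and 0.382).

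Among the other dismutase, catalase and peroxidases, Cat, the gene of catalase, was called lower in both comparisons (-0.98, adjusted p = 0.0359 and -0.95, adjusted p = 0.0381 by edgeR), but only control replicate 1 was high. Cat was at 312 TPM in that mouse and at 104 TPM in control replicate 2, which lay inside the injured range of 89.2 to 140 TPM. Control replicate 1 was also the mouse with the higher liver sum, 7070 against 1206 TPM, and liver is a tissue rich in catalase. The part of liver RNA in the Cat value was not tested. Gpx7 had 0 counts in both controls and 30 to 96 counts in SCI + Vehicle and 32 to 142 counts in SCI + Atorvastatin, and no fold is given for the same reason. Gpx3, the secreted glutathione peroxidase, named after its values were seen, rose (1.09, adjusted p = 0.00499 in SCI + Vehicle), from 38.9 and 37.2 TPM in the controls to 69.9 to 123 TPM.

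Of 8 genes of NADPH supply, Tkt, transketolase of the pentose phosphate pathway, fell (-0.54, adjusted p = 0.00147 in SCI + Vehicle by edgeR) and G6pdx, the first enzyme of that pathway, was at -0.02 (adjusted p = 0.974). Nnt, the mitochondrial transhydrogenase, was called higher (1.67, adjusted p = 0.00952 and 1.89 in SCI + Atorvastatin). It had 204 and 93 counts in the controls and 350 to 679 in the injured mice, a far smaller difference than in TPM, where the controls were at 0 and 0.32 and the injured mice at 9.58 to 19.5. C57BL/6J mice are known to carry a deletion within Nnt and to lack the functional protein, so its counts say nothing of the protein. The list of 8 genes headed selenoprotein synthesis also holds genes of selenoproteins themselves. Secisbp2, which binds the selenocysteine insertion element, rose (1.19, adjusted p = 0.0103 in SCI + Vehicle by edgeR). On TPM, however, control replicate 2, at 15.6, lay inside the SCI + Vehicle range of 15.3 to 20.2. Sepw1, selenoprotein W, fell (-0.95, adjusted p = 0.000727 in SCI + Vehicle by edgeR), from 763 and 851 TPM in the controls to 411 to 600 TPM in the injured mice.

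Between SCI + Atorvastatin and SCI + Vehicle, 0 of the 72 genes were called by edgeR or by DESeq2, with 7 at an unadjusted p below 0.05 by edgeR and 5 by DESeq2, against 7.03% of all genes by edgeR. Their median log2 fold change was 0.03, with 48 above and 24 below 0. Gstp1 (-0.41), which had the smallest p, Slc7a11 (0.69), Txnip (0.41) and Ftl1 (0.25) were among the 7, with Gpx7 (0.71), Sod3 (0.44) and Idh2 (0.21), the last pair named after their values were seen. Hmox1 was at 0.29 and was not among them. After adjustment over all genes, none of these had a p below 0.05 by edgeR.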

How the data were processed

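RNA from 16 mouse spinal cords was made into libraries from total RNA with a stranded SMARTer Pico kit (v2). Per the submitters' processing notes the tools were FastQC 0.12.1, Trimmomatic 0.38, STAR 2.5.4b and RSEM 1.3.1 with mm10, which is GRCm38. Raw counts per gene were deposited as whole numbers, and how they were made whole is not given in the sources used here. The authors also deposited TPM, which are scaled for gene length and library. Whether counting used the strand is not given in the sources used here. Groups were taken from the labels.

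Filtering kept the 16091 genes whose mean TPM exceeded 1 in any condition. The groups compared were fitted in edgeR 4.0.16 (R 4.3.3) with TMM and the quasi-likelihood test on the counts, with Benjamini-Hochberg adjustment over all genes. Calls needed a log2 fold change beyond 0.32 and adjusted p below 0.05 against the controls, or unadjusted p below 0.001 between treatments. A count of 0 allows up to 3 counts, 0.117 to 0.202 CPM, which covers counting error only, and no fold was given for genes at 0 in both controls. Fits of Nqo1 that hold control replicate 1 include a 0, so the size of its fold there depends on the small value added to counts or TPM. Ratios were tested by exact two-sided permutation (36 assignments for 7 against 2, 3432 for 7 against 7) and correlations by 100000 permutations within treatments, in Python 3.11.15 with scipy 1.17.1. The fits were tried on simulated counts drawn with the means and spread of SCI + Vehicle, for 7 against 7 and 7 against 2. Simulated controls thus lacked the genes at 0 and the spread of the real controls. The simulation therefore does not show how the fits behave against the real ones. Alternatives were DESeq2 1.42.0, its size factors, all 3 groups in 1 fit, other filters, limma 3.58.1 on log2(TPM + 1) and log2(TPM + 0.001), voom with group weights, the replicate number as a block, and each mouse left out.

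The genes named are all 10 members, 12 genes of the wider lists whatever their values, and, per list and direction, the called gene of smallest p in SCI + Vehicle vs. Uninjured Control. Others are said to be named after their values were seen. The 3 genes most like each member, and pairs past adjusted p of 0.05, were taken by rule. Members and lists were chosen with earlier results of these data known. Positions are those of GENCODE M21, promoter windows those of RefSeq on GRCm38.p6, and no protein sequence was used here.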

Additional observations from a re-analysis of the deposited data

Results flagged for a closer look

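Each member and ratio was searched in the 2 injured groups for a mouse far from the others of its group, in 26 groups of values in all, and 4 were found. Chance alone flags about 1 in 20 such groups. These groups share mice and the ratios reuse members, so the 4 are not independent and were not tested against that rate. SCI + Vehicle replicate 7 had the highest Gpx4 of its group, 266.7 TMM-scaled CPM against 168.4 to 198.0 in the other 6 mice. The same mouse had the highest Sod2, 154.1 CPM against 112.0 to 120.5 in the others, and without it Gpx4 and Sod1 were called lower in SCI + Vehicle vs. Uninjured Control. The log2 ratio of Gpx1 to Gpx4 TPM was highest in SCI + Atorvastatin replicate 3, at -0.26 against -0.68 to -0.54 in the other mice of its group. The log2 ratio of Sod2 to Sod1 TPM was lowest in SCI + Vehicle replicate 1, at -3.79 against -3.47 to -3.38.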

How the results depend on the processing

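The 2 controls differed from each other by a median absolute log2 ratio of 0.740 over 12826 genes, which limits every fit against them. No pairing of mice by replicate number was found, since the deviations of same-numbered mice had correlations of -0.141 to 0.0833 between the injured groups and -0.0133 to 0.0454 with the controls. With a replicate block in edgeR, 0 members and 0 of the 72 wider genes were called against the Uninjured Control in either injured group, with 3 and 2 members and 7 and 6 wider genes at an unadjusted p below 0.05, and the injured mice numbered 3 to 7 have no partner among the controls in that fit. Voom with group quality weights also called 0 members and 0 wider genes in both, with 131 and 146 genes called in all, 3 and 2 members and 10 and 13 wider genes at an unadjusted p below 0.05. With each mouse left out in turn, members called were 3 to 7 in SCI + Vehicle and 5 to 8 in SCI + Atorvastatin vs. Uninjured Control and 0 to 0 between treatments. Wider genes called were 16 to 40, 24 to 48 and 0 to 0. The highest counts were without control replicate 1 (7 and 8 members, 40 and 48 wider genes), and without control replicate 2 the counts were 6 and 7 members and 30 and 41 wider genes. Fits without 1 control hold no spread among controls, so their counts of calls do not show which results are stable. Left-out ranges of the log2 ratio differences, in the order SCI + Vehicle vs. control, SCI + Atorvastatin vs. control and between treatments, were -0.13 to 1.06, 0.0843 to 1.27 and 0.13 to 0.30 for Gpx1 to Gpx4, -0.37 to 0.14, -0.39 to 0.11 and -0.0779 to 0.0236 for Sod2 to Sod1, and -2.04 to -1.52, -1.76 to -1.24 and 0.19 to 0.36 for Gclm to Gclc. Pairs of members that covaried were 0 on log2(TPM + 1) and 0 to 2 with a mouse left out.

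Signs that turned in other fits were as follows. Nqo1 in SCI + Vehicle vs. control was 1.96 on log2(TPM + 1), 6.89 on log2(TPM + 0.001), 3.49 in voom and 3.52 with the replicate block, and in SCI + Atorvastatin 1.73, 6.64, 3.31 and 3.47. Txnrd1 was 0.36, 0.37 and, in voom, 0.0113 in SCI + Vehicle, and 0.40, 0.41, 0.050 in voom, 0.13 with the block and 0.0031 with no gene filter in SCI + Atorvastatin. Gpx4 was 0.0702 and 0.0703 on the 2 TPM scales in SCI + Vehicle, and Gclm was 0.0271 and 0.0281 between treatments. With a mouse left out, Nqo1 ran from -1.15 to 10.67 and -1.28 to 10.58, Txnrd1 from -0.42 to 0.47, -0.38 to 0.51 and, between treatments, -0.0151 to 0.0523, and Gpx1 from -0.41 to 0.97 and -0.31 to 1.08. Between treatments Gclm ran from -0.11 to 0.0104, Srxn1 from -0.0840 to 0.0637 and Gpx4 from -0.10 to 0.0210. The cause of these turns was not tested. Other call changes were those of Sod2 in SCI + Vehicle with no filter (adjusted p = 0.0505 by edgeR) and with a filter on every condition (0.0583), Gclc there with all 3 groups in 1 fit (0.66, adjusted p = 0.0172), and Gpx4 in SCI + Atorvastatin, called by DESeq2 (-0.33). Nfe2l2, Gclm and Srxn1 kept their calls against the Uninjured Control in every fit run with both controls, except voom with group weights and the replicate block.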
